A study of Mus musculus with 32 samples.

Results

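The mitochondrial genome of the mouse bladder was followed here through 10 of its protein-coding genes, which were chosen by name: mt-Nd1, mt-Nd2, mt-Nd3, mt-Nd4, mt-Nd4l, mt-Nd5 and mt-Nd6 of respiratory complex I, mt-Cytb of complex III, and mt-Atp6 and mt-Atp8 of complex V. They are 10 of 32285 genes in the deposited count table and 10 of its 13 mitochondrially encoded rows, the other 3 being mt-Co1, mt-Co2 and mt-Co3 of complex IV. The genes were selected on their normalized levels and shares of mitochondrial counts in all 6 groups, so the levels, shares and group differences of these 10 genes are a description without a test, and nothing is read from how many of them passed a threshold. RNA was sequenced from 32 whole bladders of female C57BL/6 mice, 1 bladder per library. Of these, 6 came from young mice aged 2 months, 5 from middle-aged mice aged 10 months and 6 from untreated old mice aged 26 months. The rest came from 26-month-old mice that received oral gavage on 3 days of each month from 21 to 26 months of age. Gavage delivered water (n = 5), a vehicle of 10% ethanol and 30% polyethylene glycol 400 in 60% Phosal 50 PG (n = 4), or dasatinib at 5 mg/kg/day with quercetin at 50 mg/kg/day dissolved in that vehicle (D + Q, n = 6). D + Q is a senolytic combination, that is, a pair of agents given to remove senescent cells. The comparisons asked how the levels differed with age and with each gavage.

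Mitochondrial DNA is transcribed from both strands into long precursor RNAs, which are cut at tRNAs that lie between most of the coding genes, and most of the resulting mRNAs are then polyadenylated. The proteins it encodes are membrane subunits of the respiratory chain: the Nd subunits of the proton-pumping core of complex I, cytochrome b of complex III, the core subunits of complex IV, and subunits a and 8 of the ATP synthase, complex V. All other subunits, all of complex II, and the proteins that copy, transcribe and process mitochondrial RNA are encoded in the nucleus, so each complex except complex II is built from transcripts of both genomes. The smooth muscle and the urothelium of the bladder both rely on mitochondrial ATP production.

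The annotation of the GRCm38 (mm10) genome, GENCODE M21, gives each of the 10 genes as a single exon without introns. The complex I genes lie on the heavy-strand transcript at chrM:2751-3707 (mt-Nd1), chrM:3914-4951 (mt-Nd2), chrM:9459-9806 (mt-Nd3), chrM:9877-10173 (mt-Nd4l), chrM:10167-11544 (mt-Nd4) and chrM:11742-13565 (mt-Nd5), all on the plus strand, while mt-Nd6 (chrM:13552-14070) is on the minus strand. The complex III gene mt-Cytb is at chrM:14145-15288, and the complex V genes mt-Atp8 and mt-Atp6 are at chrM:7766-7969 and chrM:7927-8607, all on the plus strand. They range from 204 bases (mt-Atp8) to 1824 bases (mt-Nd5), and mt-Nd3 and mt-Nd4l have 348 and 297 bases. Neighbours share bases in 3 places within the set. The last 43 bases of mt-Atp8 are the first of mt-Atp6, the last 7 of mt-Nd4l are the first of mt-Nd4, and mt-Nd5 and mt-Nd6 overlap by 14 bases on opposite strands. Whether reads over such bases or from the opposite strand were counted was not stated, so mt-Nd6 reads could not be told apart from RNA of the other strand.

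The short genes are shown first because they are the ones on which the contrast below turns. The sequences are from GENCODE M21 transcripts and read 5′ to 3′. The capitals mark, in the whole mt-Atp8 (chrM:7766-7969, plus strand), the bases shared with mt-Atp6; in the last 60 bases of mt-Nd4l (chrM:10114-10173, plus strand), the bases shared with mt-Nd4; and, in the first 33 bases of mt-Nd3 (chrM:9459-9491, plus strand) and of its nuclear copy Gm28438 (chr1:24613087-24613119, minus strand), the base that differs.
mt-Atp8: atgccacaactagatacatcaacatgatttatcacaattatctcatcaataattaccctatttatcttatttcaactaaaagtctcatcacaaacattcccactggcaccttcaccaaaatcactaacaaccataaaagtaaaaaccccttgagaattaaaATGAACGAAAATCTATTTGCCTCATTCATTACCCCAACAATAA
mt-Nd4l 3′ end: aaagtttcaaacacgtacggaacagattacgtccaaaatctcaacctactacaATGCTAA
mt-Nd3 5′ end: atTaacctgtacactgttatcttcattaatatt
Gm28438 5′ end: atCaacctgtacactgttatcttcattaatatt

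The 345 aligned bases of mt-Nd3 and Gm28438 differed only by T3C, counted from 1 at the 5′ end of mt-Nd3. This copy is 1 of 7 annotated unprocessed pseudogenes that follow the mitochondrial gene order over chr1:24611535-24616197, a nuclear insertion of mitochondrial DNA. The copies of mt-Atp6 (Gm10925, 678 aligned bases), mt-Nd4l (Gm10222, 294 bases) and the first 876 bases of mt-Nd4 (Gm28439) had no mismatch. Of the 75-base windows of each gene, 99.5% of mt-Atp6, 98.7% of mt-Nd4l, 97.8% of mt-Nd3 and 61.5% of mt-Nd4 occurred without a mismatch in an annotated nuclear transcript, against 5.71% of mt-Nd2, 1.66% of mt-Nd5 and 0% of mt-Nd1, mt-Nd6, mt-Cytb and mt-Atp8. No annotated transcript covers the whole of mt-Atp8. Its last 43 bases, shared with mt-Atp6, lie in the copy Gm10925 but are too few for a 75-base window. The rest of mt-Atp8 falls in a gap of 233 bases between the copies of mt-Co2 and mt-Atp6. This equals the 233 bases between the aligned parts of mt-Co2 and mt-Atp6 on the mitochondrial genome. The sequence of that gap was not compared here. None of the 12 nuclear copies found is a row of the count table, and the treatment of reads with more than 1 match was not stated. Its part in the levels was not tested.

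Per base of transcript, the 10 genes fell into a high and a low set. In TPM, which scales the counts per base of a gene to a fixed sum per library, the means ± SD over the 32 bladders were 16161 ± 1431 for mt-Cytb, 12102 ± 1625 for mt-Nd1, 7500.2 ± 1231 for mt-Nd2, 6405 ± 1003 for mt-Nd6, 6045 ± 585 for mt-Nd4 and 5157 ± 867 for mt-Nd5. The others stood at 136 ± 40.4 TPM (mt-Atp6), 99.1 ± 44.1 TPM (mt-Nd3), 39.8 ± 31.7 TPM (mt-Atp8) and 33.4 ± 11.004 TPM (mt-Nd4l). The lowest value of any gene of the high set, 3491 TPM for mt-Nd5, lay above the highest of the low set, 227 TPM for mt-Atp6. Most neighbours in this order kept it in all 32 bladders, but mt-Nd6 exceeded mt-Nd4 in 23, mt-Nd4 exceeded mt-Nd5 in 30, mt-Atp6 exceeded mt-Nd3 in 27 and mt-Atp8 exceeded mt-Nd4l in 18. Of the low set, mt-Atp6, mt-Nd3 and mt-Nd4l had nearly all windows shared with nuclear copies, as did the likewise low mt-Co2 and mt-Co3. No whole window of mt-Atp8 occurred in an annotated nuclear transcript. The plot of level against shared sequence shows these values.

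**Figure D1:**
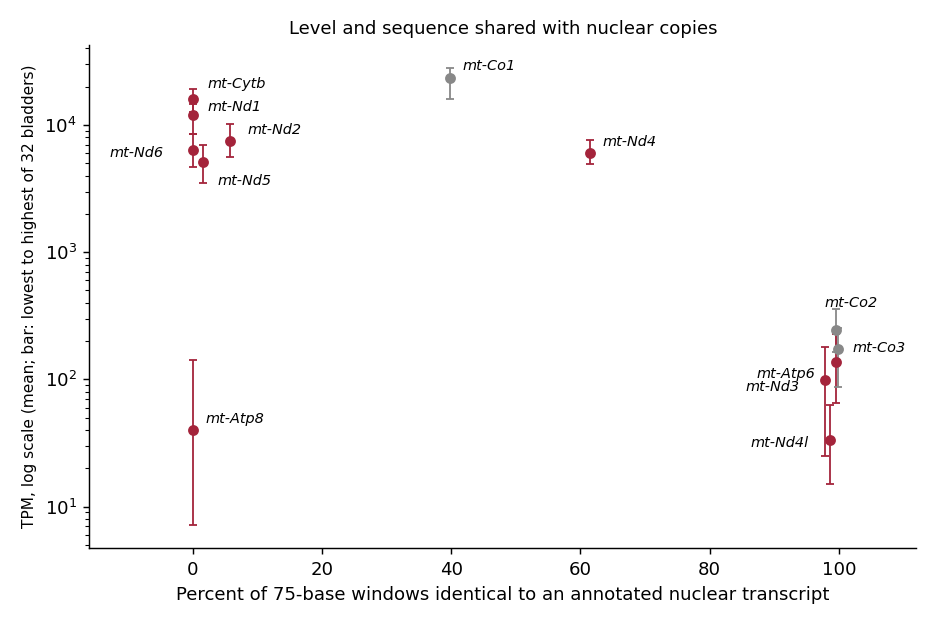
Mean TPM on a log scale (y axis; bars run from the lowest to the highest of the 32 bladders) against the percent of 75-base windows of the gene that occur without a mismatch in an annotated nuclear transcript (x axis), for the 10 genes described here (red) and mt-Co1, mt-Co2 and mt-Co3 (grey). The 5 genes with nearly all windows shared sit at or below 358 TPM in every bladder, mt-Atp8 is as low with 0%, and mt-Nd4 at 61.5% is among the high genes.

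The libraries held 15088372 to 52650259 counts, and 3 of them had fewer than 20000000, namely young replicates 3 and 4 and water replicate 1. All 9 smooth muscle and all 9 urothelial markers were detected in every group, with summed levels of 29931 to 47094 and 3904 to 5191 TMM CPM, which is CPM on library sizes scaled by the trimmed mean of M values. All 13 mitochondrial rows together took 2.12 to 3.32% of the counts of a bladder. The 10 genes took 1.35 to 2.08% of all counts and 59.4 to 64.4% of the mitochondrial counts. In whole bladders, fewer cells of a type and less RNA per cell cannot be told apart.

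Levels between bladders are given below in TMM CPM, which does not correct for gene length and serves to compare 1 gene across bladders. Among the core subunits of complex I with high levels, mt-Nd1 stood at 2721 to 4002 (median 3626) TMM CPM in young, 3009.7 to 3955 (median 3853) in middle-aged, 3255 to 3607 (median 3496) in untreated old, 2446 to 3372 (median 3084) in water-treated, 2479 to 3268 (median 2964) in vehicle-treated and 3180.2 to 3831 (median 3388) after D + Q. The groups overlapped, and the lowest bladders were water replicate 1, vehicle replicate 4 and young replicate 4, of which the first and last are shallow libraries. Vehicle replicate 4, with 21252772 counts, was the shallowest of its group. For mt-Nd2 the values were 1865 to 2849 (median 2501) in young, 1947 to 2915 (median 2541) in middle-aged and 2199 to 2565 (median 2407) in untreated old bladders. They were 1706 to 2052 (median 1819.6) after water, 1770.2 to 1973 (median 1875) after vehicle and 2187 to 2486 (median 2289) after D + Q, so that no bladder of the water or vehicle group reached the lowest of the untreated old or D + Q groups.

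For mt-Nd4 the levels were 2452 ± 127 (SD, n = 6) in young, 2735 ± 124 (SD, n = 5) in middle-aged, 2416 ± 92.0 (SD, n = 6) in untreated old, 2227 ± 122 (SD, n = 5) in water-treated, 2214 ± 96.7 (SD, n = 4) in vehicle-treated and 2407 ± 127 (SD, n = 6) after D + Q. The middle-aged bladders had the highest mean of the 6 groups and overlapped both the young and the old ones. The longest gene, mt-Nd5, ranged from 1899.7 in a water-treated to 3516 TMM CPM in a middle-aged bladder, and its group means lay between 2345 (vehicle) and 3083 (middle-aged). The gene on the minus strand, mt-Nd6, had 712 to 1184 (median 1016) in young, 924 to 1210.0 (median 1118) in middle-aged and 946 to 1116 (median 980.2) in untreated old bladders. With 710.3 to 883 (median 839) after water and 749 to 861 (median 802) after vehicle, every bladder of these groups was below every untreated old bladder and every D + Q bladder, the latter at 916 to 1095 (median 967).

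The short complex I subunit mt-Nd3 was measured at 2.51 to 16.0 (median 9.35) TMM CPM in the young bladders. The middle-aged bladders had 9.89, 15.4, 10.5, 5.09 and 8.63. The untreated old bladders had 9.84 to 14.0 (median 11.2). The spread between young bladders was wider than the whole range of the untreated old ones, and the 2 lowest young values came from the 2 shallow libraries. The water-treated bladders had 2.89, 4.86, 7.94, 4.89 and 6.62, the vehicle-treated ones 6.68, 9.85, 5.27 and 5.35, and the D + Q-treated ones 9.71 to 17.9 (median 16.4). All water-treated bladders lay below all untreated old ones, while 1 vehicle-treated bladder reached the range of the untreated old and D + Q groups. For mt-Nd4l, the other short complex I gene, the means were 3.60 ± 0.893 (SD, n = 6) in young, 3.47 ± 1.13 (SD, n = 5) in middle-aged, 2.88 ± 0.508 (SD, n = 6) in untreated old, 2.03 ± 0.171 (SD, n = 5) after water, 1.91 ± 0.616 (SD, n = 4) after vehicle and 2.96 ± 0.530 (SD, n = 6) after D + Q. These rest on 29 to 172 counts per bladder.

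Cytochrome b, the subunit of complex III that mitochondrial DNA encodes, is described next. For mt-Cytb the means were 5441 ± 239.5 (SD, n = 6) in young, 5894 ± 204 (SD, n = 5) in middle-aged, 5264 ± 232 (SD, n = 6) in untreated old, 5167 ± 474 (SD, n = 5) in water-treated, 5114 ± 518 (SD, n = 4) in vehicle-treated and 5271 ± 305 (SD, n = 6) after D + Q. All groups overlapped with the untreated old bladders. As a share of mitochondrial counts, mt-Cytb took 19.8 to 21.2 (median 20.2)% after water and 19.4 to 21.0 (median 20.6)% after vehicle, above every untreated old bladder at 18.1 to 19.0 (median 18.6)%.

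In complex V, mt-Atp6, which encodes subunit a of the proton channel, stood at 29.5 ± 10.6 (SD, n = 6) TMM CPM in young, 31.4 ± 5.56 (SD, n = 5) in middle-aged, 26.0 ± 3.92 (SD, n = 6) in untreated old, 20.4 ± 4.71 (SD, n = 5) in water-treated, 20.5 ± 10.2 (SD, n = 4) in vehicle-treated and 31.3 ± 3.89 (SD, n = 6) after D + Q. The vehicle group held 1 bladder at 35.5, while its others did not exceed 18.0. The shortest gene, mt-Atp8, encodes a small membrane subunit of the same enzyme and had the widest spread of the 10 relative to its mean. Its young bladders ranged from 0.418 to 8.07 (median 3.07), and the middle-aged bladders had 1.74, 4.71, 3.60, 0.509 and 3.09. The untreated old bladders had 1.43 to 3.62 (median 2.97), the water-treated ones 1.05, 0.507, 0.681, 0.7099 and 1.14, the vehicle-treated ones 1.49, 0.535, 0.564 and 1.03, and the D + Q-treated ones 1.65 to 3.13 (median 2.24). Every water-treated bladder was below every untreated old one, 1 vehicle-treated bladder overlapped the untreated old group, and all vehicle-treated bladders were below all D + Q-treated ones. These levels rest on 7 to 266 counts. As a share of mitochondrial counts, the lowest bladder, young replicate 4, had 0.00183% (95% Wilson interval 0.000885 to 0.00377) and young replicate 1 had 0.0252% (0.0219 to 0.0290), where the intervals cover counting error only.

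**Figure D2:**
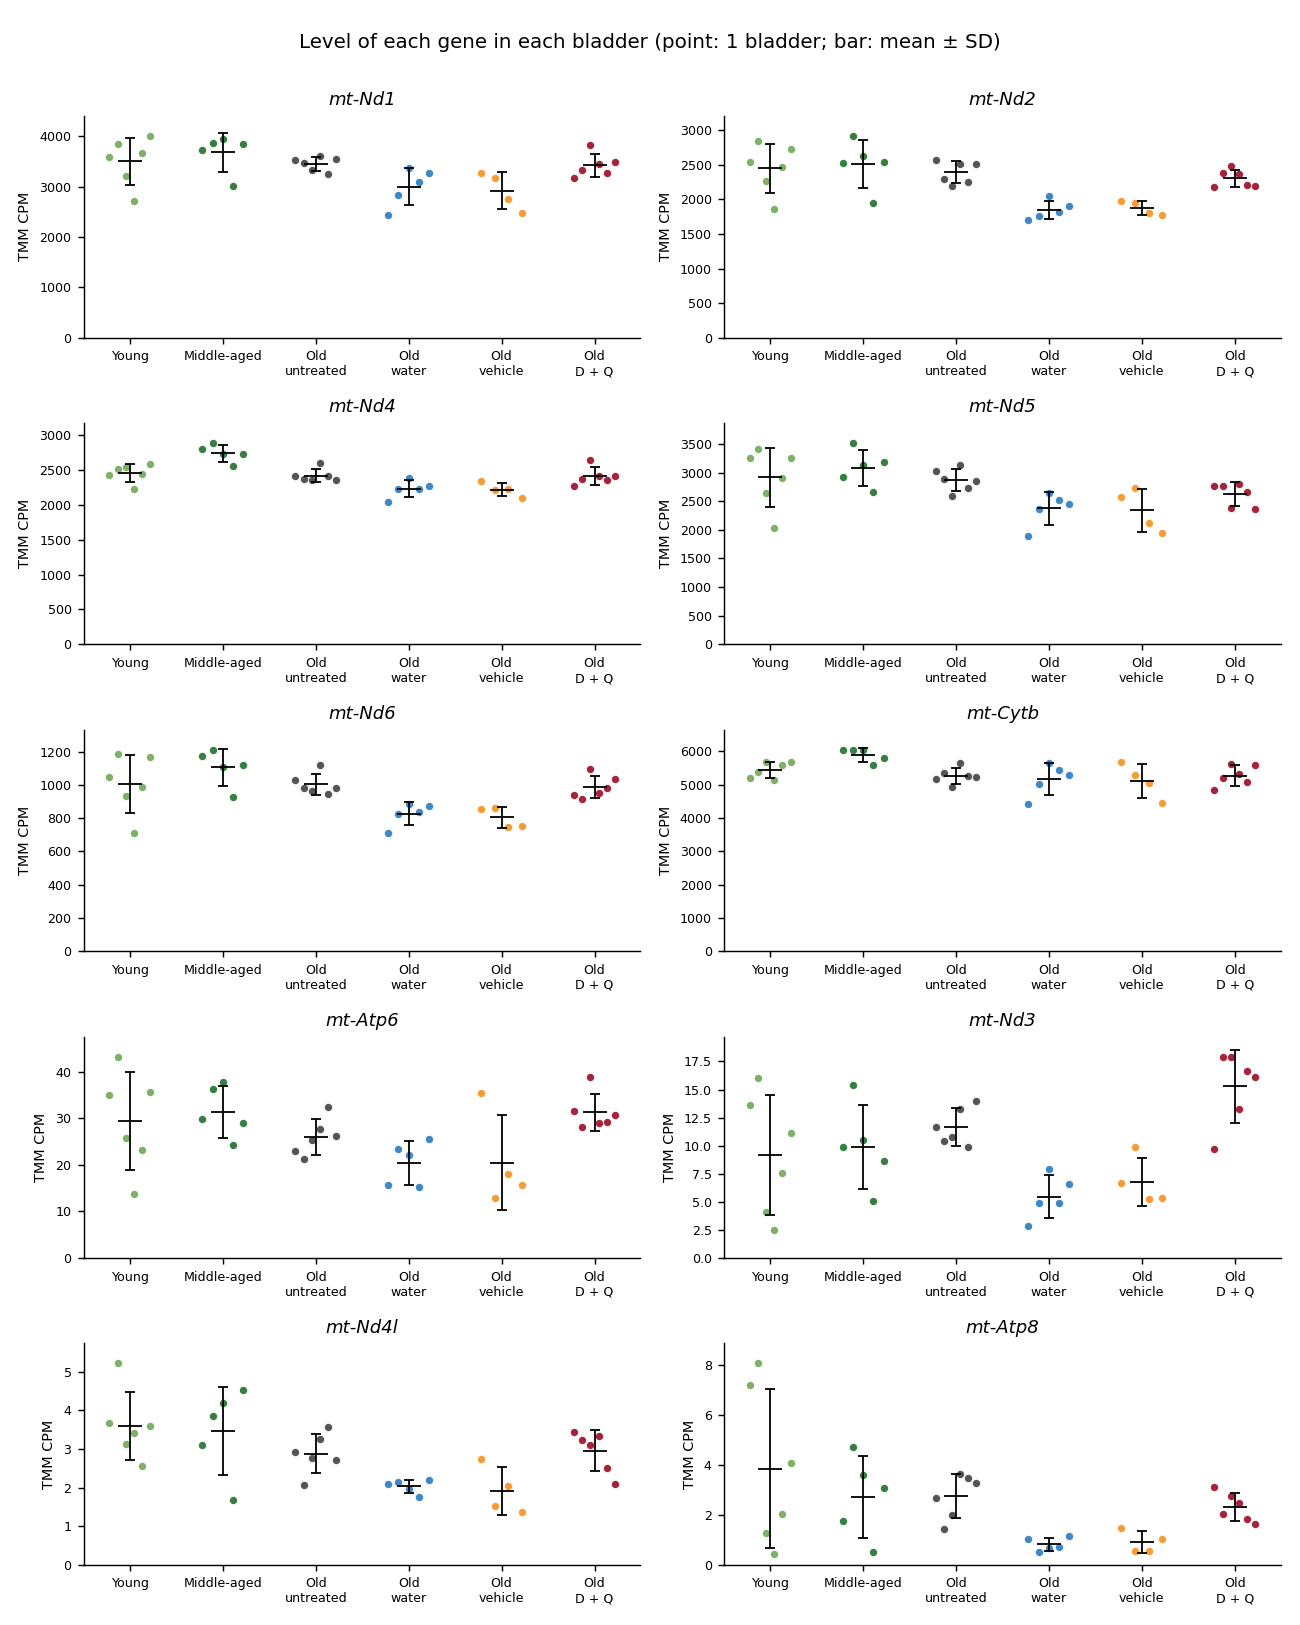
TMM CPM (y axis, from 0, scaled per gene) of each of the 10 genes in each bladder by group (x axis), where each point is 1 bladder and bars show the mean ± SD. The water and vehicle groups sit low for mt-Nd2, mt-Nd6, mt-Nd3 and mt-Atp8, for example 1.49, 0.535, 0.564 and 1.03 TMM CPM of mt-Atp8 after vehicle, while the young bladders spread most for mt-Atp8, from 0.418 to 8.07.

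Of the 3 ages, the middle-aged bladders had the highest mean levels of mt-Nd4, mt-Nd5 and mt-Cytb. Between middle-aged and young bladders their median log2 fold change was 0.07, beside 0.00 for all 16754 genes tested, and 8 of 10 were higher in middle-aged bladders. The fitted values, here and below log2 fold changes of the group named first over the second ± SE, were 0.15 ± 0.06 for mt-Nd4, 0.11 ± 0.06 for mt-Cytb, 0.13 ± 0.12 for mt-Nd6 and -0.56 ± 0.60 for mt-Atp8. None of the 10 had an adjusted p under 0.05 by edgeR's quasi-likelihood test, 1 had an unadjusted p under 0.05, and DESeq2 called 1 (mt-Nd4, higher), beside 10.8% of all genes by edgeR. Over all 16754 genes, 4564 had an unadjusted p under 0.05 by edgeR and DESeq2 called 2672. Without young replicates 3 and 4 the median turned to -0.08. Between untreated old and middle-aged bladders the median was -0.10 against -0.00 for all 17156 genes, and 8 of 10 were lower in old bladders. The lower values for mt-Nd4 (-0.16 ± 0.05), mt-Cytb (-0.14 ± 0.05), mt-Nd6 (-0.12 ± 0.07) and mt-Atp6 (-0.25 ± 0.12) stood beside higher values for mt-Nd3 (0.26 ± 0.21) and mt-Atp8 (0.04 ± 0.41). Only mt-Nd4 had an adjusted p under 0.05, beside 24.0% of all genes. Without middle-aged replicate 4 the median was -0.18 and there were 5 such genes (mt-Nd1, mt-Nd4, mt-Nd6, mt-Atp6 and mt-Cytb), and there were none without middle-aged replicate 1, 2, 3 or 5 or untreated old replicate 3 or 5, and 2 without untreated old replicate 4.

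Over the whole span, untreated old against young bladders, the median was -0.03 against -0.00 for all 16873 genes. The largest differences were in the short genes, with -0.52 ± 0.50 for mt-Atp8, 0.33 ± 0.33 for mt-Nd3 and -0.32 ± 0.17 for mt-Nd4l, while mt-Nd6 (0.00 ± 0.10) and mt-Nd1 (-0.02 ± 0.09) were near 0. As differences of mean log2 TMM CPM, mt-Atp8 was at 0.04 and mt-Nd3 at 0.61, so the sign for mt-Atp8 depended on the measure. None of the 10 had an adjusted p under 0.05 by edgeR or DESeq2, and none had an unadjusted p under 0.05, beside 25.1% of all genes called by edgeR. Over all 16873 genes, 6125 had an unadjusted p under 0.05 by edgeR and DESeq2 called 4853. Without the shallow young libraries the median was -0.13, and with library size alone in place of TMM it was 0.02. No group of the 3 ages was separate from another for any of the 10 genes, whereas 7.07%, 15.8% and 12.8% of all genes had separate groups in middle-aged against young, old against middle-aged and old against young bladders.

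The gavage groups were all compared with the same 6 untreated old bladders. In water-treated bladders all 10 genes were lower, with a median log2 fold change of -0.33 against 0.00 for all 17250 genes. The short genes were lowest, with -1.79 ± 0.28 for mt-Atp8 and -1.11 ± 0.20 for mt-Nd3, followed by -0.52 ± 0.14 for mt-Nd4l, -0.39 ± 0.06 for mt-Nd2 and -0.36 ± 0.15 for mt-Atp6. The values for mt-Nd6 (-0.29 ± 0.06), mt-Nd5 (-0.29 ± 0.08), mt-Nd1 (-0.22 ± 0.07) and mt-Nd4 (-0.13 ± 0.04) were smaller, and mt-Cytb was at -0.04 ± 0.06. Of the 10, 4 had an adjusted p under 0.05 (mt-Nd2, mt-Nd3, mt-Nd6 and mt-Atp8), beside 1.0% of all genes, and the groups did not overlap for the same 4, beside 3.11% of all genes. This number was 8 by DESeq2, beside 703 of all 17250 genes. It was 0 when all 6 groups were fitted together, when limma was run on the deposited table and with the replicate number as a block. In each of these last settings 0 of all genes passed as well. The number for the 10 genes was 2 without water replicate 1, the shallow library, or replicate 5, 1 without water replicate 4, and 2 without untreated old replicate 1, 2, 5 or 6.

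In vehicle-treated bladders all 10 genes were likewise lower, with a median of -0.34 against 0.00 for all 17440 genes. The values were -1.62 ± 0.36 for mt-Atp8, -0.79 ± 0.18 for mt-Nd3, -0.59 ± 0.21 for mt-Nd4l, -0.36 ± 0.06 for mt-Nd2, -0.33 ± 0.06 for mt-Nd6 and -0.05 ± 0.07 for mt-Cytb. None of the 10 had an adjusted p under 0.05 by edgeR, 8 had an unadjusted p under 0.05 and DESeq2 called 6, beside 0% of all genes by edgeR, with 1464 of them at an unadjusted p under 0.05 and 132 called by DESeq2. The groups did not overlap for mt-Nd2, mt-Nd4 and mt-Nd6, beside 2.42% of all genes. Without vehicle replicate 4, the shallowest of its group, the median was -0.28. In that fit 8 had an unadjusted p under 0.05 by edgeR, beside 988 of all genes.

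After D + Q the median was -0.01 relative to the untreated old group and 4 of 10 genes were higher. The largest values were 0.39 ± 0.14 for mt-Nd3, 0.27 ± 0.10 for mt-Atp6 and -0.26 ± 0.23 for mt-Atp8, while mt-Nd1, mt-Nd4, mt-Cytb and mt-Nd6 were at -0.01, -0.01, 0.00 and -0.02. None of the 10 had an adjusted p under 0.05 by edgeR or DESeq2, 2 had an unadjusted p under 0.05, and 0% of all genes were called by edgeR, with 2200 at an unadjusted p under 0.05 and 185 called by DESeq2. All groups overlapped, beside 0.616% of all genes without overlap. Against the vehicle that carried the drugs, all 10 genes were higher after D + Q, with a median of 0.30 and with 1.36 ± 0.31 for mt-Atp8, 1.17 ± 0.21 for mt-Nd3, 0.63 ± 0.22 for mt-Nd4l, 0.30 ± 0.06 for mt-Nd2 and 0.05 ± 0.07 for mt-Cytb. None of these had an adjusted p under 0.05 by edgeR, 8 had an unadjusted p under 0.05, DESeq2 called 4 (mt-Nd2, mt-Nd3, mt-Nd6 and mt-Atp8), and 0% of all genes were called by edgeR, with 722 at an unadjusted p under 0.05 and 11 called by DESeq2. The groups did not overlap for mt-Nd2, mt-Nd6 and mt-Atp8, beside 0.996% of all genes. Without vehicle replicate 4 the median was 0.27 and 9 of 10 were higher. In that fit 5 had an unadjusted p under 0.05 by edgeR, beside 534 of all genes. The vehicle bladders enter this comparison and the one with untreated old bladders, so the 2 sets of values are not independent.

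**Figure D3:**
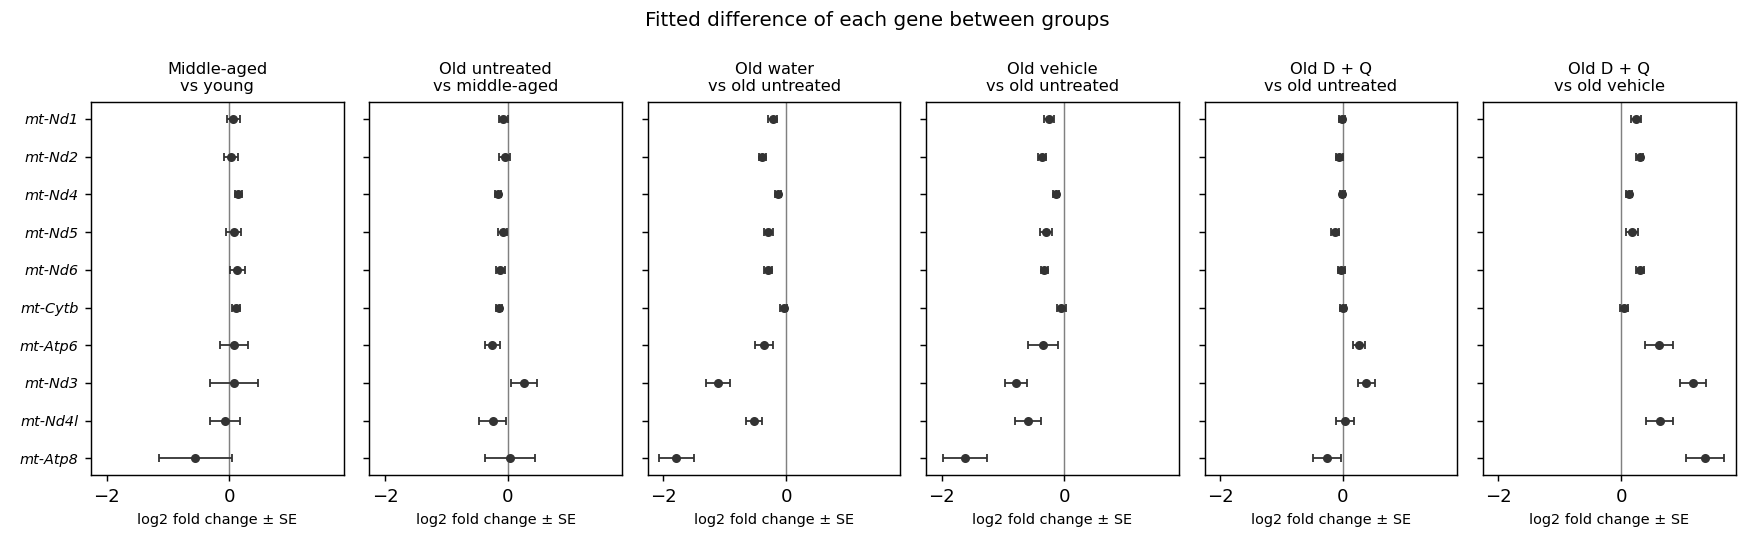
Fitted log2 fold change ± SE (x axis, edgeR) of each of the 10 genes (y axis) in 6 comparisons of groups; points left of the line at 0 are lower in the group named first. All 10 points lie left of 0 in the water and vehicle panels, down to -1.79 for mt-Atp8 after water, and all 10 lie right of 0 for D + Q against vehicle.

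Summed over the 10 genes, the level was 17818 ± 1725 (SD, n = 6) TMM CPM in young, 19064 ± 1417 (SD, n = 5) in middle-aged, 17446 ± 769.8 (SD, n = 6) in untreated old, 15478 ± 1422 (SD, n = 5) in water-treated, 15299 ± 1469 (SD, n = 4) in vehicle-treated and 17075 ± 650.3 (SD, n = 6) after D + Q. The sum is carried by the 6 high genes. Their shares of the mitochondrial counts shifted between groups: mt-Nd2 took 8.44 ± 0.391 (SD, n = 6)% in untreated old bladders, 7.29 ± 0.534 (SD, n = 5)% after water, 7.51 ± 0.605 (SD, n = 4)% after vehicle and 8.23 ± 0.299 (SD, n = 6)% after D + Q. The share of mt-Nd3 was 0.0412 ± 0.00510 (SD, n = 6)% in untreated old bladders, 0.0209 ± 0.00563 (SD, n = 5)% after water, 0.0268 ± 0.00636 (SD, n = 4)% after vehicle and 0.0544 ± 0.0108 (SD, n = 6)% after D + Q. Shares in water-treated and untreated old bladders did not overlap for mt-Nd3, mt-Nd5, mt-Nd6, mt-Atp8 and mt-Cytb, of which mt-Cytb was higher after water. Shares of 1 total depend on each other, so that some rise where others fall. They exist for mitochondrial rows only, so no rate over all genes stands beside them and nothing is read from their number. All mitochondrial rows together took 2.87 ± 0.113 (SD, n = 6)% of counts in untreated old bladders, 2.55 ± 0.262 (SD, n = 5)% after water, 2.51 ± 0.307 (SD, n = 4)% after vehicle and 2.82 ± 0.0968 (SD, n = 6)% after D + Q.

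The short mt-Atp8 and mt-Nd3 were set against the long mt-Nd1, mt-Nd2, mt-Nd4, mt-Nd5, mt-Atp6 and mt-Cytb as the difference of their mean log2 TMM CPM in each bladder. It was -8.36 ± 1.13 (SD, n = 6) in young, -8.44 ± 0.77 (SD, n = 5) in middle-aged, -8.00 ± 0.28 (SD, n = 6) in untreated old and -7.93 ± 0.11 (SD, n = 6) after D + Q. The 5 water-treated bladders had -9.59 to -8.88 and the 4 vehicle-treated ones -9.36 to -8.79, all below the lowest untreated old bladder (-8.46) and the lowest D + Q-treated bladder (-8.08). The mean difference from untreated old bladders was -1.22 after water, -0.99 after vehicle and 0.07 after D + Q. The low values were not limited to gavage: young replicate 4 (-10.05), young replicate 3 (-9.24) and middle-aged replicate 4 (-9.68) lay in or below the range of the water and vehicle groups, while young replicates 1 and 2 (-7.27 and -7.20) had the highest of all 32. With age the direction depended on single bladders. Middle-aged minus young was -0.07, but above 0 without young replicate 1, 2 or 6 or middle-aged replicate 4 and -0.72 without young replicates 3 and 4. Old minus middle-aged was 0.44 and 0.13 without middle-aged replicate 4, and old minus young was 0.36, 0.03 without young replicate 4 and -0.28 without young replicates 3 and 4.

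The same difference, but with a pseudocount of 0.1, was taken for nuclear genes. It set 221 genes of at most 500 bases, without immunoglobulin and T-cell receptor segments, against 5389 genes of 1000 to 3000 bases. Its group means ran from -3.06 to -2.99, and with the receptor segments, over 421 short genes, the 32 bladders ran from -4.31 to -1.57. A mean over so many genes varies less than a mean over 2 genes, so the spread of the nuclear values cannot be compared with that of mt-Atp8 and mt-Nd3. As a description over the 32 bladders, the short-to-long difference of the mitochondrial genes had a Pearson r of 0.07 (Spearman's rho 0.02) with that of the nuclear genes without receptor segments, 0.24 (rho -0.13) with the log2 of the total counts and 0.61 (rho 0.61) with the mitochondrial percent of counts, which shares its libraries and reads. The mitochondrial percent itself had a Pearson r of 0.41 (rho 0.08) with the log2 of the total counts. The part of library preparation, RNA quality or read mapping in the short-to-long difference was not tested, and no extraction or sequencing batch was given in the sources used here.

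**Figure D4:**
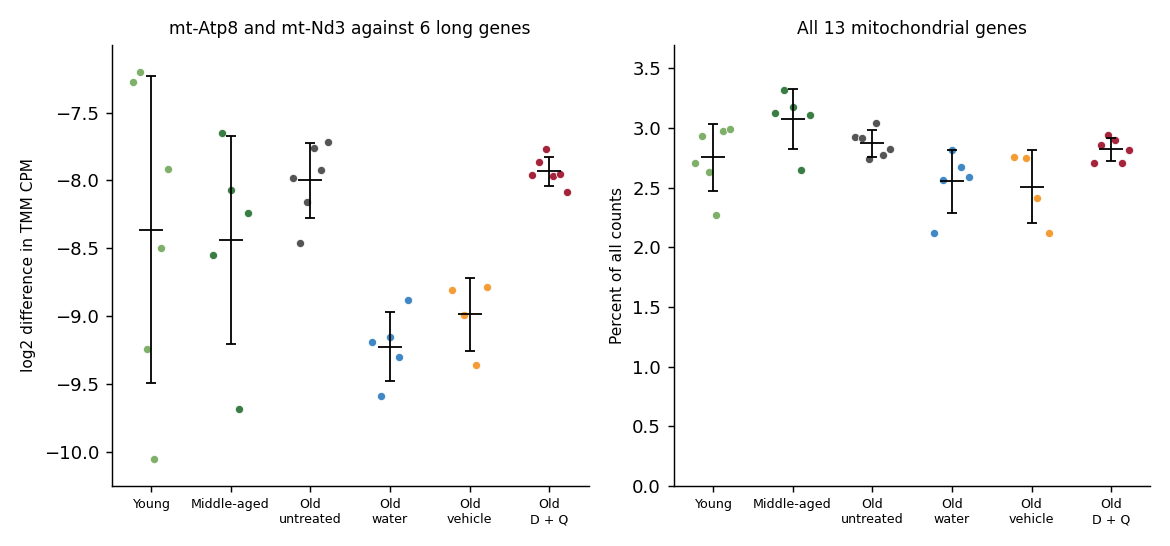
Left, log2 TMM CPM of mt-Atp8 and mt-Nd3 minus that of 6 long mitochondrial genes; right, percent of all counts from the 13 mitochondrial genes, for each bladder (points) by group with mean ± SD (bars). On the left the water and vehicle bladders lie at -9.59 to -8.88 and -9.36 to -8.79, below all untreated old and D + Q bladders.

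The nuclear partners of these genes were not used to choose them and were tested in the same fits, with edgeR's quasi-likelihood test and Benjamini-Hochberg adjustment over all genes. Their lists were set with earlier results of these data known, and the count over all respiratory subunits was added after seeing the data. Nuclear respiratory subunits had lower levels in the untreated old than in the middle-aged group. Of 79 tested genes of complexes I to V, 46 fell and none rose, with a median log2 fold change of -0.12 against -0.00 for all genes, beside 24.0% of all genes called in either direction. By complex, 23 of 36 fell in complex I, 2 of 4 in complex II, 7 of 9 in complex III, 7 of 14 in complex IV and 7 of 16 in complex V. In complex I, Ndufa5 fell by 0.26 on the log2 scale (SE 0.05, adjusted p = 0.00184) and Ndufa6 changed by -0.22 ± 0.04 (adjusted p = 0.00104). In complex II, Sdhc changed by -0.18 ± 0.03 and Sdha by -0.11 ± 0.03, while Sdhb and Sdhd had -0.08 ± 0.04 and -0.09 ± 0.03 and did not pass. In complex III the largest changes were in Uqcrb (-0.18 ± 0.03) and Uqcrh (-0.17 ± 0.04), in complex IV in Cox6c (-0.31 ± 0.04, adjusted p = 1.5e-04) and Cox4i1 (-0.19 ± 0.04), and in complex V in Atp5k (-0.19 ± 0.06) and Atp5c1 (-0.15 ± 0.04). The mitochondrially encoded mt-Nd4 and mt-Cytb had -0.16 ± 0.05 and -0.14 ± 0.05 in this comparison. With all 6 groups in a single fit, 9 of the 79 fell. The mean log2 TMM CPM of the complex I genes was 5.90 ± 0.06 (SD) in middle-aged and 5.75 ± 0.04 in untreated old bladders. At the same age of 26 months it was 5.86 ± 0.04 after water, 5.86 ± 0.06 after vehicle and 5.86 ± 0.14 after D + Q. In complexes III, IV and V, but not II, each gavaged group also had a mean nearer to the middle-aged one. The counts above thus describe the untreated old group only.

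Between middle-aged and young bladders no nuclear subunit passed by edgeR, 5 had an unadjusted p under 0.05, 1 passed by DESeq2, and without the shallow young libraries 10 rose. Between untreated old and young bladders 21 fell, beside 25.1% of all genes, and without the shallow libraries 12 fell and 1 rose. In water-treated against untreated old bladders the nuclear subunits and the mitochondrially encoded genes lay on opposite sides of 0. Of the 79, 73 were above 0 and 5 rose with an adjusted p under 0.05 (Ndufa5, Ndufb11, Ndufs5, Uqcr10 and Atp5e), beside 1.0% of all genes, while all 10 mitochondrial genes were below 0. The median of the 79 was 0.09, and Uqcr10, a small complex III subunit, had the lowest adjusted p of the 5 (0.21 ± 0.03, adjusted p = 0.0203). None passed without water replicate 1, water replicate 5 or untreated old replicate 2, in the single fit of all groups, with the replicate number as a block or with limma. In the single fit, with the block and with limma, 0 of all genes passed. The median was 0.10 in vehicle-treated and 0.13 after D + Q, both against the untreated old group, and 0.02 in D + Q-treated against vehicle-treated bladders. In these 3 comparisons none of the 79 passed by edgeR. In that order, 39, 37 and 1 had an unadjusted p under 0.05 by edgeR, and DESeq2 called 3, 0 and 0.

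**Figure D5:**
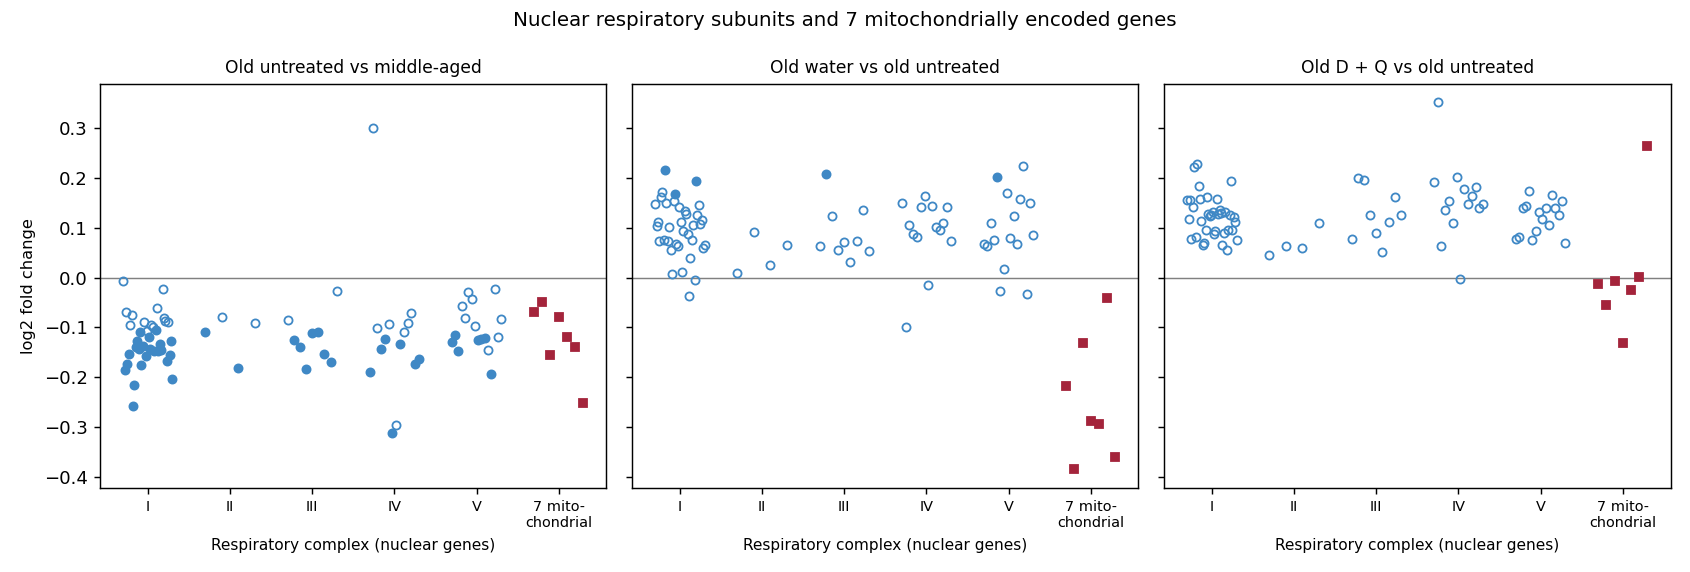
Log2 fold change (y axis) of nuclear genes of respiratory complexes I to V (circles, filled where the adjusted p was under 0.05). Red squares show mt-Nd1, mt-Nd2, mt-Nd4, mt-Nd5, mt-Nd6, mt-Cytb and mt-Atp6 in that order. All squares are solid and carry no mark of a test, since their values chose them. The genes mt-Nd3, mt-Nd4l and mt-Atp8 are not drawn. In untreated old against middle-aged bladders 46 of 79 circles are filled and below 0; after water the circles lie mostly above 0 and the squares below it, and after D + Q no circle is filled.

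Genes that make and handle mitochondrial RNA were read against the share of all genes called, 10.8% in middle-aged against young, 24.0% in untreated old against middle-aged and 25.1% in untreated old against young bladders. Of 18 tested genes for mitochondrial transcription and replication, among them Tfam, Polrmt and Tefm, none passed in any of the 7 comparisons by edgeR or DESeq2, and 0 to 4 had an unadjusted p under 0.05 by edgeR. Of 21 genes for RNA processing and stability, 2 fell from middle-aged to untreated old mice and 2 from young to untreated old mice, and none passed elsewhere by edgeR, where 0 to 2 had an unadjusted p under 0.05 and DESeq2 called 1 after water. Lrpprc, which stabilizes mitochondrial mRNAs and keeps them polyadenylated, went from 107 ± 4.29 TMM CPM (SD, n = 5) in middle-aged to 84.7 ± 3.42 TMM CPM (SD, n = 6) in untreated old bladders (-0.31 ± 0.04, adjusted p = 7.3e-05), and Hsd17b10, a subunit of mitochondrial RNase P, changed by -0.17 ± 0.04 (adjusted p = 0.0118). After water, vehicle and D + Q, Lrpprc had -0.02 ± 0.03, -0.05 ± 0.04 and -0.00 ± 0.05 against untreated old bladders. Among 13 regulators of mitochondrial biogenesis, 2 rose and 1 fell in middle-aged against young bladders, the largest rises being Ppargc1a, a coactivator of respiratory genes (0.62 ± 0.12, adjusted p = 0.00797), and Ppara, a nuclear receptor for fatty acid oxidation (0.47 ± 0.05, adjusted p = 5.9e-04). None of the 13 passed between middle-aged and untreated old mice by edgeR, 2 had an unadjusted p under 0.05 and DESeq2 called 1, and between young and untreated old mice 3 rose and 1 fell. Of 9 genes taken to follow mitochondrial mass, 3 fell in untreated old against middle-aged bladders, beside 24.0% of all genes, led by the channels Vdac1 (-0.16 ± 0.03) and Vdac2 (-0.14 ± 0.03), and Vdac3 fell in middle-aged against young bladders (-0.18 ± 0.05).

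Markers of other cell types moved with age, where 24.0% of all genes were called in untreated old against middle-aged and 10.8% in middle-aged against young bladders. In untreated old against middle-aged bladders 6 of 7 B-cell markers rose, led by Ms4a1 (5.00 ± 0.42) and Pax5 (4.67 ± 0.54), all 7 T-cell markers rose, led by Cd8a (3.43 ± 0.40) and Trac (2.98 ± 0.28), and 6 of 7 macrophage markers rose, led by C1qb (0.95 ± 0.16) and C1qa (0.83 ± 0.15). The summed B-cell markers stood at 4.59 to 10.5 TMM CPM in middle-aged and 68.8 to 204 in untreated old bladders. Of 9 smooth muscle markers 3 fell, with Smtn at -0.32 ± 0.06 and Myh11 at -0.24 ± 0.07, and of 9 urothelial markers 3 fell and 1 rose, with Upk2 at -0.23 ± 0.06 and Krt14 at 2.76 ± 0.87. Levels of Krt14 were low and spread widely, at 1.74 ± 1.69 (SD) TMM CPM in young, 0.28 ± 0.19 in middle-aged and 1.91 ± 2.81 in untreated old bladders. Of 7 fibroblast markers 1 fell (Lum, -0.41 ± 0.09), 2 of 6 endothelial markers fell (Cldn5, -0.46 ± 0.08) and Vwf rose (0.32 ± 0.06), 3 of 7 skeletal muscle markers rose and 1 fell, led by Ttn (1.88 ± 0.47) and Myh2 (1.56 ± 0.36), and Alas2 of the red blood cell list rose (1.56 ± 0.49). In middle-aged against young bladders 3 of 6 tested B-cell markers rose, among them Cd79a (1.37 ± 0.38). In the same comparison 5 fibroblast markers fell (Col3a1, -1.33 ± 0.22, and Col1a1, -1.07 ± 0.19), 3 skeletal muscle markers fell (Myh2, -2.54 ± 0.64, and Myh1, -1.55 ± 0.46), 2 endothelial markers fell (Cdh5, -0.28 ± 0.05, and Pecam1, -0.24 ± 0.06) and Krt14 fell (-2.66 ± 0.71). No adipocyte marker passed in any comparison by edgeR or DESeq2, and 0 or 1 of 5 had an unadjusted p under 0.05. After water, vehicle and D + Q against untreated old bladders, no marker of any list passed by edgeR, while 10, 2 and 21 of 69 had an unadjusted p under 0.05 and DESeq2 called 5, 1 and 4. Over all genes, in the same order, 2760 of 17250, 1464 of 17440 and 2200 of 17037 had an unadjusted p under 0.05 by edgeR. DESeq2 called 703, 132 and 185 of them. In D + Q-treated against vehicle-treated bladders none of the 69 passed by edgeR or DESeq2 and 7 had an unadjusted p under 0.05 by edgeR, among them all 5 red blood cell markers, led by Hbb-bt (3.13 ± 0.93, adjusted p = 0.994). The summed red blood cell markers stood at 223 to 3460.1 TMM CPM after D + Q, 102 to 164 after vehicle and 70.7 to 569 in untreated old bladders, so that the D + Q and vehicle groups did not overlap. Against untreated old bladders all 5 also had an unadjusted p under 0.05, and so did all 7 T-cell markers, whose sum was 26.7 to 45.8 TMM CPM after D + Q and 40.2 to 88.7 in untreated old bladders. The summed smooth muscle markers were 31278 to 36008 TMM CPM in untreated old, 30047 to 40711 in water-treated and 32556 to 38792 in vehicle-treated bladders. The part of cell composition in the levels of the 10 genes was not tested.

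Across bladders the 10 genes varied together to different degrees. As a description over 32 bladders, and after each group's mean was removed, Pearson's r of log2 TMM CPM was 0.89 for mt-Nd1 with mt-Nd6, 0.88 for mt-Nd3 with mt-Nd6 and 0.10 for mt-Atp8 with mt-Cytb. These values share libraries, depth and scaling, and overlapping genes also share bases. Among 15041 nuclear genes with a mean of at least 1 TMM CPM, those whose pattern over the 32 bladders was most like the mean of the 10 genes, by Pearson's r of log2 levels, were Tmem47 (0.90), Cd164 (0.90), Sh3bgrl (0.89), Ppp1cb (0.89) and Rab18 (0.89). None of the 5 is a short gene, as their annotated exons sum to 3298 to 10913 bases.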

How the data were processed

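RNA was sequenced from 32 whole bladders, 1 per library, from a total RNA stranded library kit. The authors aligned reads with STAR 2.7.3 to mm10 and counted them per gene with featureCounts, and the deposited counts are whole reads per gene without normalization. Gene length in bases is a column of the deposited count table. The authors also deposited a log2 table, in which 1 was added to each count before division by gene length and the linear values of every library sum to 100000. The strand setting and the treatment of reads with several matches were not given in the sources used here.

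Totals were 15088372 to 52650259 counts per bladder, and 95% Wilson intervals on shares cover counting error only. Each of 7 comparisons was fitted on its own groups with edgeR 4.0.16 in R 4.3.3 (filterByExpr, trimmed mean of M values, quasi-likelihood F-test, Benjamini-Hochberg adjustment over all genes tested, threshold 0.05). Levels are TMM CPM over all 32 bladders, and log2 levels used a pseudocount of 0.1. TPM were computed from counts and gene length. Alternatives were DESeq2 1.42.0, limma 3.58.1 on the deposited log2 table, other filters and scalings, a fit of all 6 groups, a replicate block and leaving out each bladder. Leaving out bladders under 20000000 counts, the count of nuclear respiratory subunits and the nuclear short genes without receptor segments were added after seeing the data. Tables and plots used Python 3.11.15, numpy 2.4.6, pandas 2.3.3, scipy 1.17.1 and matplotlib 3.10.9, and the fits were tested on simulated data.

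Groups came from the sample labels, whose titles and descriptions number replicates differently. Labels do not name litters, so p-values measure the spread between bladders. The members and lists were chosen with earlier results of these data known, and 213 of 216 list genes were in the table. Named were all 10 genes, the 2 called genes of each list with the largest change in old against middle-aged and in middle-aged against young bladders, all genes of lists of up to 4, and the 5 nuclear genes most like the mean pattern. The 5 nuclear subunits called after water and Tfam, Polrmt, Tefm and Hbb-bt were named after their values were seen. A gene that this rule would name is not reported here.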

Additional observations from a re-analysis of the deposited data

Results flagged for a closer look

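Of 72 sets of values (each of the 10 genes, their sum and the short-to-long difference, in each of 6 groups of 4 to 6 bladders), 4 held a bladder far from the rest by Dixon's criterion at the 95% level, where chance flags about 1 in 20. For mt-Nd1, middle-aged replicate 4 stood at 3009.7 TMM CPM, below the others at 3738 to 3955. For mt-Nd4, untreated old replicate 4 stood at 2596 TMM CPM, above the others at 2353 to 2413, and D + Q replicate 3 stood at 2646 TMM CPM, above the others at 2269 to 2406. For mt-Atp6, D + Q replicate 3 stood at 38.8 TMM CPM, above the others at 28.2 to 31.6.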

How the results depend on the processing

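Over all alternatives, 346 values stayed within the limits set for a change and 59 moved. None of the members' counts is evidence of a change, as they were chosen with these values known. Of the 10 mitochondrial genes, 0 were called in middle-aged against young bladders, and 1 by DESeq2 or in the fit of all 6 groups. In old against middle-aged bladders 1 was called, but 2 by DESeq2, 0 without a filter, by limma or with the replicate block, and 0 to 5 when 1 bladder was left out. After water 4 were called, but 8 by DESeq2, 0 in the fit of all groups, by limma or with the replicate block, 2 without the shallow library and 1 to 4 when 1 bladder was left out. Of all genes, 0 were called after water in the fit of all groups, by limma or with the replicate block, and 703 by DESeq2. After vehicle and in D + Q against vehicle 0 were called, but 6 and 4 by DESeq2. The short-to-long difference after water was -1.51 with mt-Atp8 alone as short gene, -0.94 with mt-Nd3 alone and -0.90 with mt-Nd4l added, and after vehicle -1.41 and -0.56 with mt-Atp8 or mt-Nd3 alone. D + Q minus untreated was -0.22 with mt-Atp8 and 0.36 with mt-Nd3 alone, and D + Q minus vehicle was 0.83 with mt-Nd4l added. Of the nuclear subunits, 46 were called in old against middle-aged bladders, 9 in the fit of all groups and 35 to 51 when 1 bladder was left out. Against young bladders 21 were called, 7 without TMM, 13 without the shallow libraries and 11 to 29 when 1 bladder was left out. After water 5 were called, 16 by DESeq2, 1 without a filter, 3 without TMM, 0 in the fit of all groups, by limma, with the replicate block or without the shallow library, and 0 to 7 when 1 bladder was left out. The causes were not tested. The replicate numbers did not pair the bladders: the correlations of deviations of 35 same-numbered pairs ran from -0.295 to 0.153, and 5 exceeded 0.1. The values of mt-Atp8 rest on 7 to 266 counts per bladder.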
